A study of Homo sapiens with 4 samples.

Results

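The 34 genes described here belong to the ATF4 and amino acid response. They were taken from a list of gene names set out by role in the pathway and make up 34 of the 19775 genes that could be named on the arrays. All 34 were measured, each by its brightest probe set with 1 gene, and all 34 passed the filter on dim signals. RNA came from U87TR-Da cells, which descend from U87MG, a human glioblastoma line, and express DACH1 when doxycycline is added. DACH1 is a nuclear protein that represses transcription. The 4 conditions were DACH1-induced and DACH1-silenced cells labelled as grown in NBE, Neurobasal medium without serum to which the supplements N-2 and B-27 and the growth factors EGF and bFGF are added, and the same states labelled as grown in DMEM with 10% fetal bovine serum. Each condition had 1 Affymetrix array, so no difference between 2 arrays has a replicate check, and precision is limited by having 4 arrays in all. Doxycycline at 1 µg/mL for 72 h is named for every sample, also for the silenced ones. The sources used here do not say how silencing was achieved, whether the line is 1 clone, or when the arrays were scanned.

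ATF4 is a bZIP transcription factor whose protein is made when kinases that sense amino acid shortage, unfolded protein, shortage of haem or viral RNA phosphorylate eIF2alpha. It pairs with other bZIP factors such as C/EBP proteins at C/EBP-ATF response elements and raises transcription of genes for amino acid synthesis, amino acid import and tRNA charging. ATF4 is controlled to a large part by translation, so its mRNA signal does not give its protein level. In glioma the cystine and glutamate exchanger SLC7A11, a target of ATF4, is known for glutamate release.

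Promoter sequences are shown first because the genes share one known regulator and its element can be searched for. RefSeq promoter windows of 300 bases, from 250 before to 50 after a transcription start site (GRCh38.p14), were found for 27 of the 34 genes. That site was the outermost 5′ end of the gene for 22 of them and lay inside the gene's span for 5, by 56.0 kb for ASNS and 25.6 kb for SLC3A2 and by under 1 kb for DDIT3, TRIB3 and CBS. NUPR1, EIF4EBP1, PSPH, SHMT2, ALDH1L2, PYCR1 and SLC7A11 were not matched. The letters TGATGNAA, the core of the C/EBP-ATF response element, were searched on both strands. They occurred in 6 of the 27 windows (22.2%), against 3.67% of all 27305 windows and 1.94% of the 9873 windows of genes in the limma fit. The palindromes TGACGTCA and CACGTG, also searched, do not overlap these letters. TGACGTCA was in 0 of the 27 windows (1.98% of all) and CACGTG in 2, those of ATF4 and SLC7A5 (7.43% of all). In windows of genes in the fit these shares were 3.24% for TGACGTCA and 10.4% for CACGTG, higher than over all windows, while that of TGATGNAA was lower. A match is a description of letters, and other elements may lie outside the window. The genes were listed for the ATF4 response, whose element holds these letters, so a higher share among them is not an independent result. The 6 sites are printed 5′ to 3′ on the gene's strand with the matched letters in capitals and up to 8 bases on each side:
ASNS (chr7:97872461-97872484, minus strand): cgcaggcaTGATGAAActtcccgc
SLC7A1 (chr13:29595666-29595689, minus strand): cgcactgcTGATGAAAcctggcgc
CHAC1 (chr15:40953254-40953277, plus strand): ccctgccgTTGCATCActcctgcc
AARS1 (chr16:70289678-70289701, minus strand): tctcgcagTTGCATCAgccaagtt
CARS1 (chr11:3057410-3057433, minus strand): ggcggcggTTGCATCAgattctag
SLC3A2 (chr11:62881728-62881748, plus strand): aggactccTTACATCAgctcc
The ASNS and SLC7A1 matches lie on the gene's own strand and carry the same 8 letters, and the other 4 lie on the opposite strand. CHAC1, AARS1 and CARS1 share another run of 8 letters. With the first transcribed base counted as 1 and no 0, the ASNS match spans positions -68 to -61, the CHAC1 match -209 to -202, and the AARS1 match -187 to -180. The CARS1 match starts at -2 and ends at 6, while those of SLC7A1 (8 to 15) and SLC3A2 (38 to 45) lie after the start. Of the 6 genes, ASNS and SLC3A2 differed between the media by the test given below, and their whole windows are printed with the match in capitals:
ASNS promoter (chr7:97872359-97872658, minus strand): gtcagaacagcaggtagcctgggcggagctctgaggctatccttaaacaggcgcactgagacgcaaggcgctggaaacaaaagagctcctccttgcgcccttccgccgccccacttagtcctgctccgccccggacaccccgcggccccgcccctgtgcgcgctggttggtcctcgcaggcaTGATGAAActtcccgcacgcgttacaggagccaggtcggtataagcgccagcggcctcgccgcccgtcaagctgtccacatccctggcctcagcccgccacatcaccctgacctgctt
SLC3A2 promoter (chr11:62881449-62881748, plus strand): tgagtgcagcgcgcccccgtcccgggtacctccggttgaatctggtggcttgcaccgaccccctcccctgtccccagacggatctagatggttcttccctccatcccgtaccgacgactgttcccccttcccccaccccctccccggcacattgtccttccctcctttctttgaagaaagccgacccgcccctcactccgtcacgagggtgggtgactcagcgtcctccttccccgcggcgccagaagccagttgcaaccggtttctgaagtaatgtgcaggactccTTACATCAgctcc

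**Figure D1:**
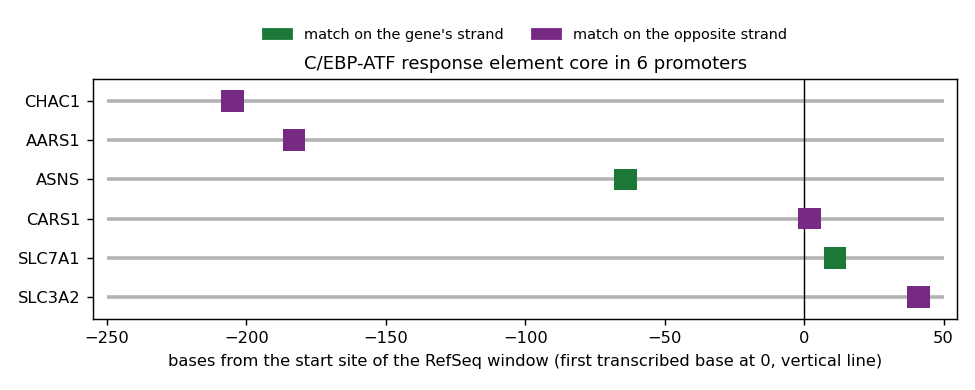
Position of the C/EBP-ATF response element core in the promoter windows of 6 genes, with bases from the start site of the RefSeq window on the x axis (for ASNS and SLC3A2 an internal site, 56.0 and 25.6 kb inside the gene) and 1 grey line per 300-base window. Boxes mark the 8 matched bases, green on the gene's strand and purple on the opposite strand. The CHAC1, AARS1 and ASNS matches lie before the start.

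Signals are MAS5 intensities on a linear scale. Their trimmed means were 99.63 to 99.65 on the 4 arrays, though the sources used here do not describe a scaling step, and a gene was compared across arrays on that basis. Levels of different genes cannot be compared. Median signals over 54613 probe sets were 17.1 and 19.3 on the induced and silenced arrays labelled serum-free and 15.7 and 16.5 on those labelled serum. DACH1 read 875.1 and 32.5 on the serum-free-labelled arrays and 4431 and 126.0 on the serum-labelled ones, induced before silenced, so both pairs followed their DACH1 labels. DACH1 was itself 4.43-fold lower under the serum-free label (limma adjusted p 0.0177). Of 8 markers of glioblastoma and glia, GFAP, SOX2 and S100B lay under the floor of 10.9 on all 4 arrays. NES (19.6 to 35.8), EGFR (481.1 to 1281), VIM (6065 to 9278) and CD44 (4214 to 5666) were not called by medium, and OLIG2 fell 5.58-fold under the serum-free label (limma adjusted p 0.0170). The 4 mesenchymal markers, VIM and CD44 included, summed to 24847 and 29016 under the serum-free label, induced before silenced, against 14450 and 14680 under the serum label. Of these COL1A1 rose 6.36-fold and FN1 3.73-fold (limma adjusted p 0.0167 and 0.0203). Of 3 neuronal markers, SNAP25 rose 3.45-fold (limma adjusted p 0.0349), and RBFOX3 and SYP lay under the floor on all 4 arrays. Of the immune, epithelial and endothelial markers, 0 were called, and each list summed to 73.2 or less on every array. Only KRT8 and PECAM1 of them were in the fit, so the others could not be called. Of all these markers, OLIG2, COL1A1, FN1 and SNAP25 were the ones called by medium. The part of such shifts in the medium differences below was not tested. The genes checked for the media moved in different ways. The immediate early gene EGR1 fell 28.3-fold under the serum-free label and the contractile gene CNN1 rose 20.1-fold (limma adjusted p 0.0167 each). Of 9 named cholesterol synthesis genes, LSS alone was called, rising 2.19-fold. The media are therefore called by their labels.

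The medium comparison asked how the culture medium changed expression. Under the serum-free label, 4 of the 7 regulators of the response fell, ATF4 among them, while a cystine transporter, a secreted glycoprotein and a translation repressor rose. CTH, which encodes the cysteine-forming cystathionine gamma-lyase, fell 8.63-fold, and GDF15, which encodes a secreted stress hormone, fell 11.2-fold. STC2, which encodes stanniocalcin 2, rose 10.4-fold and SLC7A11 rose 7.45-fold. In all, 3 of 34 genes rose and 9 fell by limma at an adjusted p of 0.05 over 12103 genes, with DACH1 state as a second term. Over all genes, 15.4% rose and 12.7% fell. The limma adjusted p of the 12 genes lay between 0.0167 and 0.0380. All 12 differed in the same direction in induced and in silenced cells. A call in this fit in effect requires that, because its error is the gap between these states. The median log2 difference was -0.16 over the 34 genes and 0.02 over all genes. Each gene has 1 residual degree of freedom in this fit, whose error comes from how far the DACH1 difference of single arrays varies with medium. The p-values thus say nothing of the spread between cultures. In RNA from whole cultures, fewer expressing cells and less RNA per cell cannot be told apart. With no filter on dim genes it called 0 of the 34, and with a trend in the variance prior 7 rose and 11 fell.

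**Figure D2:**
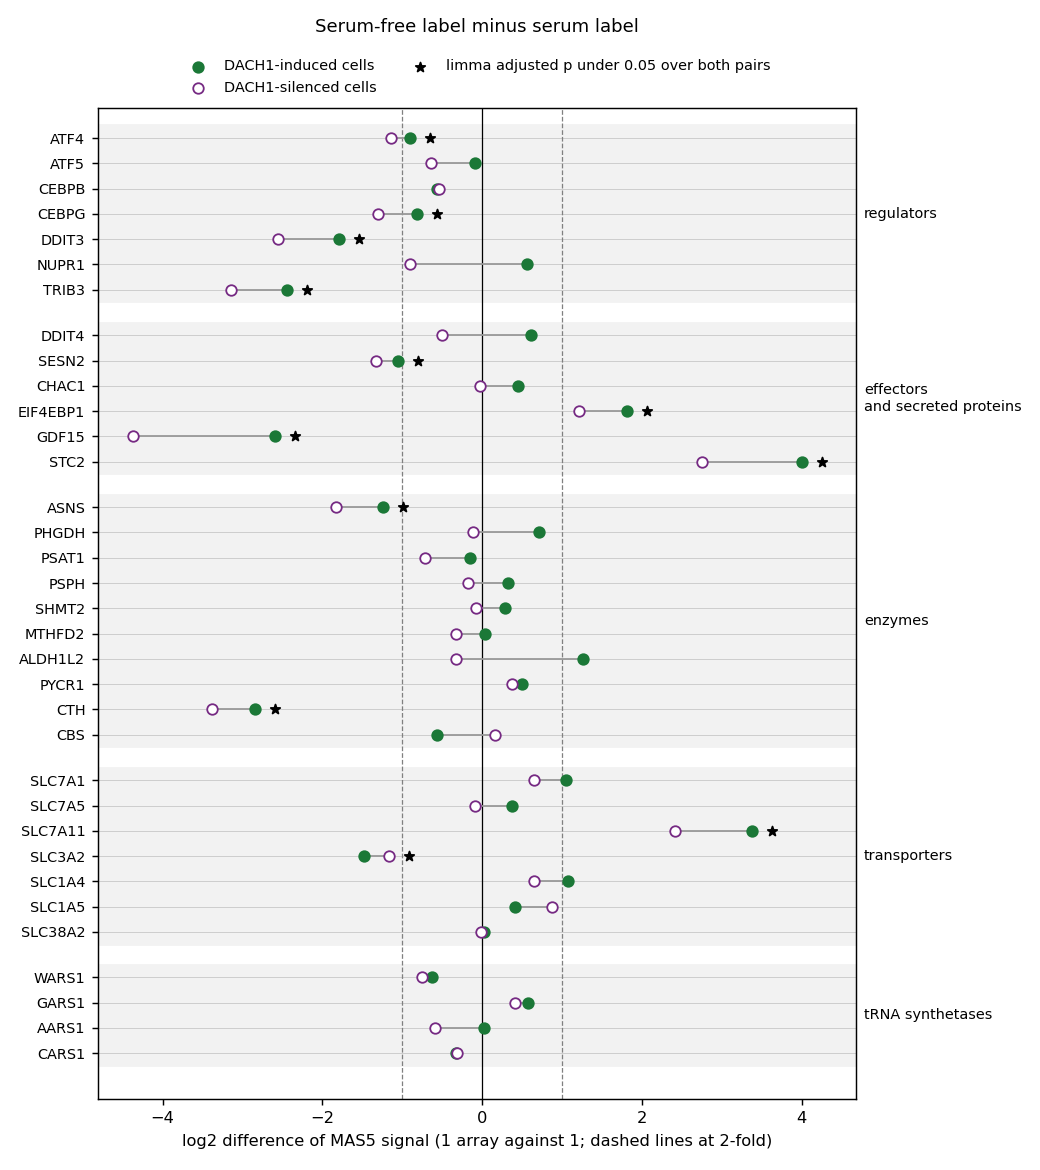
Log2 difference of MAS5 signal, serum-free minus serum label, for each of the 34 genes, grouped by role, in DACH1-induced cells (filled) and DACH1-silenced cells (open), 1 array against 1. Stars mark the 12 genes with a limma adjusted p under 0.05. TRIB3, GDF15 and CTH lie far to the left and STC2 and SLC7A11 far to the right in both states.

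Counted at 2-fold in each pair without a test, 6 of 34 genes were higher and 7 lower under the serum-free label in induced cells, where 14% of all genes compared were higher and 10.1% lower. In silenced cells 3 were higher and 9 lower, against 15.3% and 12.2% of all genes. TRIB3, DDIT3, SESN2, GDF15, ASNS, CTH and SLC3A2 were at least 2-fold lower in both states, and STC2, EIF4EBP1 and SLC7A11 at least 2-fold higher. These are 7 and 3 of the 34 genes, where 6.87% of all genes in the fit were 2-fold lower in both states and 9.26% higher. Over the 34 genes, 14 were lower in both states, 8 were higher in both and 12 differed in sign, against 39%, 41.1% and 19.4% of all genes in the fit.

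The DACH1 comparison asked what induction of DACH1 does in these cells. In the serum-labelled medium most of the 34 genes read lower on the induced than on the silenced array. A log2 difference below 0 was seen for 31 of 34, against 49.2% of all 12190 genes compared. GDF15 was 3.54-fold lower, SLC7A11 3.02-fold, the mitochondrial folate enzyme gene ALDH1L2 2.86-fold, STC2 2.71-fold and NUPR1 2.46-fold. In this pair 9 of 34 genes were at least 2-fold lower and 0 higher, where 4.77% of all genes were lower and 2.91% higher. Another 9 were between 1.5-fold and 2-fold lower, which made 18 at 1.5-fold or more, against 12.6% of all genes. The median log2 difference was -0.62 over the 34 genes and 0.01 over all genes. Without probe sets ending in _x_at or _s_at, 5 of the 21 genes left in this pair were 2-fold lower.

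In the serum-free-labelled medium the differences between induced and silenced cells were mostly small by the chosen probe sets. DACH1 itself read 875.1 in induced cells there, against 4431 under the serum label. It was 26.9-fold above silenced cells under the serum-free label and 35.2-fold under the serum label. The part of this lower DACH1 signal in the smaller differences was not tested. Of the 34 genes, 26 were below 0, where 50.4% of all genes were, and the median log2 difference was -0.17. CBS, a dim gene, was 2.02-fold lower and 0 genes were 2-fold higher, where 2.72% of all 12659 genes were lower and 1.02% higher. Among all genes 2-fold apart in this pair, 72.7% were lower, and 58.2% with quantile normalization, which left 0 of the 34 genes 2-fold apart. Genes below 0 in both media numbered 25, against 24.4% of all genes in the fit, and CEBPB and SLC7A5 were above 0 in both, as were 26.7% of all genes. By limma with medium as a second term, 0 of the 34 genes were called by DACH1 state, as were 0% of all genes. The smallest adjusted p was 0.931 among the 34 genes and 0.234 over all genes. The value of 0.234 is that of DACH1 itself, 30.8-fold higher in induced cells, so this fit did not call the induced gene either. At an unadjusted limma p under 0.05 there were 6 (CHAC1, ASNS, PSAT1, PYCR1, CTH and SLC7A11), against 4.83% of all genes. All 6 were lower in induced cells in both media. The same sign in both media is in effect required for such a p, because the error of the fit is the gap between them.

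**Figure D3:**
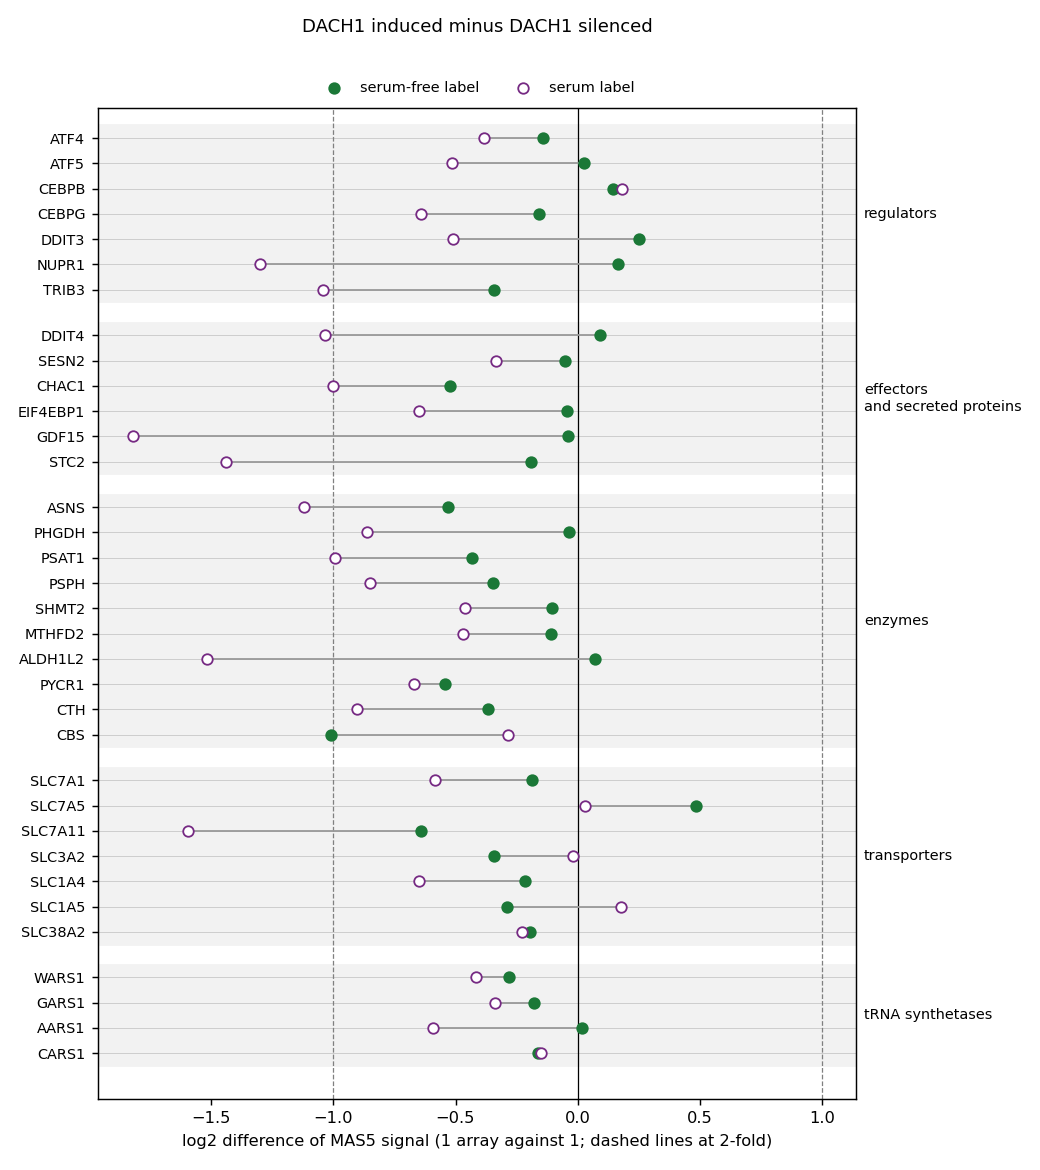
Log2 difference of MAS5 signal, DACH1 induced minus silenced, for each of the 34 genes, grouped by role, under the serum-free label (filled) and the serum label (open), 1 array against 1. Most open points lie left of the filled ones: the medians are -0.17 under the serum-free label and -0.62 under the serum label.

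The DACH1 differences in the 2 media are set side by side here without a test, because 4 arrays leave no error for an interaction. The DACH1 signal itself was lower under the serum-free label, as given above. The log2 difference was higher under the serum-free label, that is less negative or more positive, for 29 of 34 genes, against 48.6% of all genes in the fit. For 5 of them it was higher by at least 1, against 5.4% of all genes, and for 0 it was lower by at least 1. The median of this difference of differences was 0.48 over the 34 genes and -0.01 over all genes. The silenced serum-labelled array enters both the DACH1 pair under the serum label and the medium pair in silenced cells, so those 2 comparisons are not independent. It held the highest of the 4 signals for 23 of the 34 genes, where 26.6% of all genes were highest on it. The induced serum-labelled array held the lowest for 17, where 24.5% of all genes were lowest on it. The part of this single array in the DACH1 result was not tested.

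**Figure D4:**
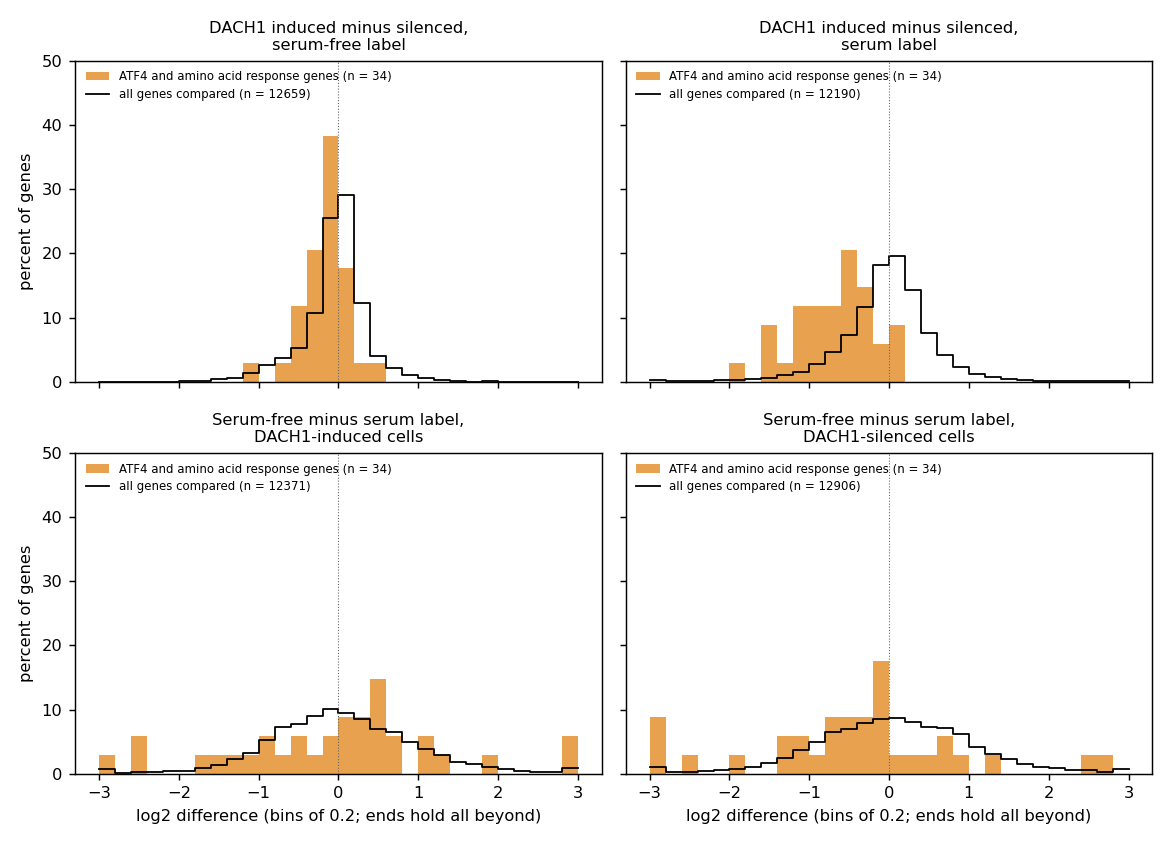
Percent of genes in bins of 0.2 of the log2 difference for the 34 genes (orange bars) and all genes compared (black line), in the 4 pairs of arrays. Under the serum label the bars of the DACH1 pair lie mostly left of 0 (31 of 34 genes), and the bars of both medium pairs spread to either side.

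Among the 7 regulators, 4 fell under the serum-free label and 0 rose, where 12.7% of all genes fell and 15.4% rose. All 7 had a log2 difference below 0, as did 5925 of all 12103 genes in the fit. The median of the 7 was -1.03. ATF4 itself read 1493 and 1648 on the serum-free-labelled arrays, induced before silenced, against 2798 and 3650 on the serum-labelled ones, and so was lower on both serum-free-labelled arrays. The fall was 2.04-fold, a log2 difference of -1.03 with an SE of 0.19 (adjusted p 0.0327 in limma). DDIT3, which encodes the stress factor CHOP, fell 4.52-fold (-2.18, SE 0.26, adjusted p 0.0203 in limma), with 274.8 and 231.0 against 954.7 and 1359. TRIB3, which encodes a pseudokinase that binds ATF4, fell 6.93-fold (-2.79, SE 0.25, adjusted p 0.0170 in limma), with 74.6 and 94.6 against 405.9 and 835.7. CEBPG, a bZIP partner of ATF4, fell 2.09-fold at an adjusted p of 0.0380 in limma, which was 0.0561 without a floor on low signals. For these genes the ranges of the media did not overlap. TRIB3 and CEBPG each had another probe set with 2 or more arrays above the filter, and both moved in the same direction (-2.62 and -0.98).

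The remaining regulators were not called by medium. CEBPB, a C/EBP factor, read 3450 and 3118 under the serum-free label and 5125 and 4522 under the serum label, induced before silenced, a log2 difference of -0.55 at a limma adjusted p of 0.0882. It was also the regulator with induced signals above the silenced ones in both media, by 1.11-fold and 1.13-fold. ATF5, a bZIP relative of ATF4, was dim at 62.8 to 97.6. NUPR1, a small stress-induced nuclear protein gene, read 437.2 in induced and 390.2 in silenced cells under the serum-free label, against 296.8 and 730.8 under the serum label. Its high signal was thus on a single array. With DACH1 induced under the serum label, TRIB3 was 2.06-fold lower, CEBPG 1.56-fold, DDIT3 1.42-fold and ATF4 1.30-fold lower. Under the serum-free label the same genes were within 1.27-fold by their chosen probe sets. The other probe set of TRIB3 gave a log2 difference of 0.46 there, and that of CEBPG -0.02.

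The 6 effectors and secreted proteins split by medium, with 2 called in each direction, where 15.4% of all genes rose and 12.7% fell. STC2 read 2798 and 3195 under the serum-free label, induced before silenced, against 174.3 and 472.6 under the serum label, a rise with a log2 difference of 3.38 (SE 0.36, limma adjusted p 0.0190). Its other probe set gave 3.34. GDF15 read 39.9 and 41.0 against 241.1 and 852.3, and fell by 3.49 on the log2 scale (SE 0.48, limma adjusted p 0.0231). These genes both code for secreted proteins and moved in opposite directions by similar amounts. The other 2 probe sets of GDF15 were under the floor on every array, so its value rests on 1 probe set whose name ends in _x_at.

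EIF4EBP1, the gene of a repressor of cap-dependent translation, rose 2.86-fold under the serum-free label (adjusted p 0.0267 in limma), with 929.5 in induced and 957.6 in silenced cells against 263.6 and 414.0. SESN2, a leucine sensor that restrains mTORC1, fell 2.29-fold (adjusted p 0.0277 in limma), and its signals were 155.6 and 161.2 against 322.7 and 406.5. DDIT4, another inhibitor of mTORC1, was not called: it read 1607 and 1510 against 1050 and 2148. CHAC1, which encodes an enzyme that degrades glutathione, read 74.3 and 106.6 under the serum-free label and 54.3 and 108.7 under the serum label, so its induced signals lay under both silenced ones. All 6 genes of this group were lower with DACH1 induced under the serum label, with a median log2 difference of -1.02. At least 2-fold lower were 4 of them, against 4.77% of all genes compared in this pair. Under the serum-free label the median was -0.05.

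Of the 10 enzymes, 0 rose and 2 fell by medium, where 15.4% of all genes rose and 12.7% fell. The enzymes had a median log2 difference of -0.04. Under the serum label all 10 were lower in induced cells, with log2 differences between -1.52 and -0.28 and a median of -0.86. Under the serum-free label 9 of 10 were lower, with a median of -0.36. ASNS, which makes asparagine and whose promoter is printed above, read 325.1 in induced and 469.2 in silenced cells under the serum-free label, and 766.5 and 1665 under the serum label. It was 1.44-fold and 2.17-fold lower with DACH1, and it fell 2.89-fold by medium (-1.53 on the log2 scale, SE 0.23, adjusted p 0.0257 in limma). CTH read 48.4 and 62.4 under the serum-free label and 346.7 and 648.9 under the serum label, and fell with a limma adjusted p of 0.0167 (-3.11, SE 0.22). The 2 media did not overlap for either gene, and the other probe set of CTH gave -2.71.

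The serine pathway was lower with DACH1 at each of its 3 steps under the serum label and was not called by medium. PHGDH, the first enzyme, read 375.4 in induced and 384.6 in silenced cells under the serum-free label, against 229.5 and 416.8 under the serum label. PSAT1, the enzyme of the next step, read 1129 and 1525 against 1257 and 2500, and PSPH, which releases serine, 115.7 and 147.1 against 92.6 and 167.0. With DACH1 under the serum label PSAT1 was 1.99-fold, PHGDH 1.82-fold and PSPH 1.80-fold lower. Under the serum-free label PSAT1 was 1.35-fold and PSPH 1.27-fold lower, and PHGDH 1.02-fold. The second probe set of PSAT1 gave log2 differences of -0.54 under the serum-free label and -1.01 under the serum label, close to -0.43 and -0.99 of the brighter one. Another probe set of PSPH differed from its brighter one. It gave -0.40 against -0.85 by DACH1 under the serum label, and 0.88 against 0.07 by medium. Its signals were 101.8 and 109.9 under the serum-free label and 50.1 and 66.3 under the serum label, induced before silenced.

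Downstream of serine, the mitochondrial folate enzymes differed in size. SHMT2, which turns serine into glycine, was 1.38-fold and MTHFD2 1.39-fold lower with DACH1 under the serum label. ALDH1L2, which oxidises formyl folate, read 226.9 in induced and 216.3 in silenced cells under the serum-free label, against 94.7 and 271.3 under the serum label. Only its induced serum-labelled signal was low, and its other 2 probe sets gave log2 differences of -1.49 and -1.04 in that pair. PYCR1, the last enzyme of proline synthesis, was lower with DACH1 by 1.46-fold under the serum-free label and 1.59-fold under the serum label. CBS, which makes the substrate of CTH, was dim: it read 18.4 in induced and 22.4 in silenced cells under the serum label, and 12.4 in induced cells under the serum-free label, where it was 2.02-fold lower than in silenced cells.

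Of the 7 transporters, 1 rose and 1 fell by limma under the serum-free label, where 15.4% of all genes rose and 12.7% fell. Of the 7, 6 had a log2 difference above 0, as did 6178 of all 12103 genes in the fit. SLC7A11 read 241.8 in induced and 376.9 in silenced cells under the serum-free label, against 23.3 and 70.4 under the serum label, a log2 difference of 2.90 (SE 0.30, limma adjusted p 0.0188). Its other 2 probe sets gave 1.94 and 2.07 by medium. By DACH1 they did not agree: the dimmer one read 50.7 and 57.4 under the serum-free label and 16.3 and 12.2 under the serum label, a log2 difference of 0.42 in the serum-labelled pair, while the other gave -1.63 there. SLC3A2, the heavy chain that carries SLC7A11 and SLC7A5 to the membrane, fell 2.50-fold (-1.32 on the log2 scale, SE 0.19, adjusted p 0.0247 in limma), with 289.9 and 367.3 against 811.9 and 821.7. The light chain SLC7A11 and its heavy chain thus moved in opposite directions. SLC7A5, the large neutral amino acid transporter, read 302.1 and 215.7 under the serum-free label and 233.5 and 228.9 under the serum label and was not called.

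SLC7A1, a carrier of arginine and lysine, read 1159 and 1318 under the serum-free label, induced before silenced, and 559.5 and 837.8 under the serum label (log2 difference 0.85, limma adjusted p 0.0506). SLC1A4, an exchanger of small neutral amino acids, read 186.1 and 216.3 against 88.2 and 138.3 (0.86, limma adjusted p 0.0515). Neither passed the threshold, although SLC7A1 did in 5 and SLC1A4 in 6 of 8 alternative settings. The signals of their chosen probe sets did not overlap between media. Another probe set of SLC1A4 did overlap, with 81.8 and 105.0 against 63.1 and 109.0, a log2 difference of 0.16. The rest of SLC1A4 gave 0.99, 0.89 and 0.84. SLC1A5, the glutamine exchanger, had a limma adjusted p of 0.0938 at 0.64. SLC38A2, a sodium-coupled neutral amino acid transporter, stayed between 3064 and 3593 on all 4 arrays. With DACH1, SLC7A11 was 1.56-fold lower under the serum-free label and 3.02-fold under the serum label. Its other probe sets gave log2 differences of -0.18 and -1.06 under the serum-free label. SLC1A4 was 1.16-fold lower under the serum-free label and 1.57-fold under the serum label, and SLC7A1 gave log2 differences of -0.19 and -0.58. SLC3A2 gave -0.34 and -0.02.

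The 4 tRNA synthetase genes, which charge tRNAs with tryptophan, glycine, alanine and cysteine, showed small differences and 0 calls by medium. WARS1 read 406.2 in induced and 494.2 in silenced cells under the serum-free label, against 626.0 and 835.8 under the serum label (log2 difference -0.69, limma adjusted p 0.0594). GARS1 ran the other way, with 1613 and 1828 against 1086 and 1373 (0.49, limma adjusted p 0.116). CARS1 was lower under the serum-free label by 1.25-fold over both states. AARS1 read 1146 and 1131 against 1128 and 1698, so that its silenced serum-labelled signal alone was high. With DACH1 under the serum label all 4 were lower, AARS1 by 1.51-fold, WARS1 by 1.34-fold, GARS1 by 1.26-fold and CARS1 by 1.11-fold.

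**Figure D5:**
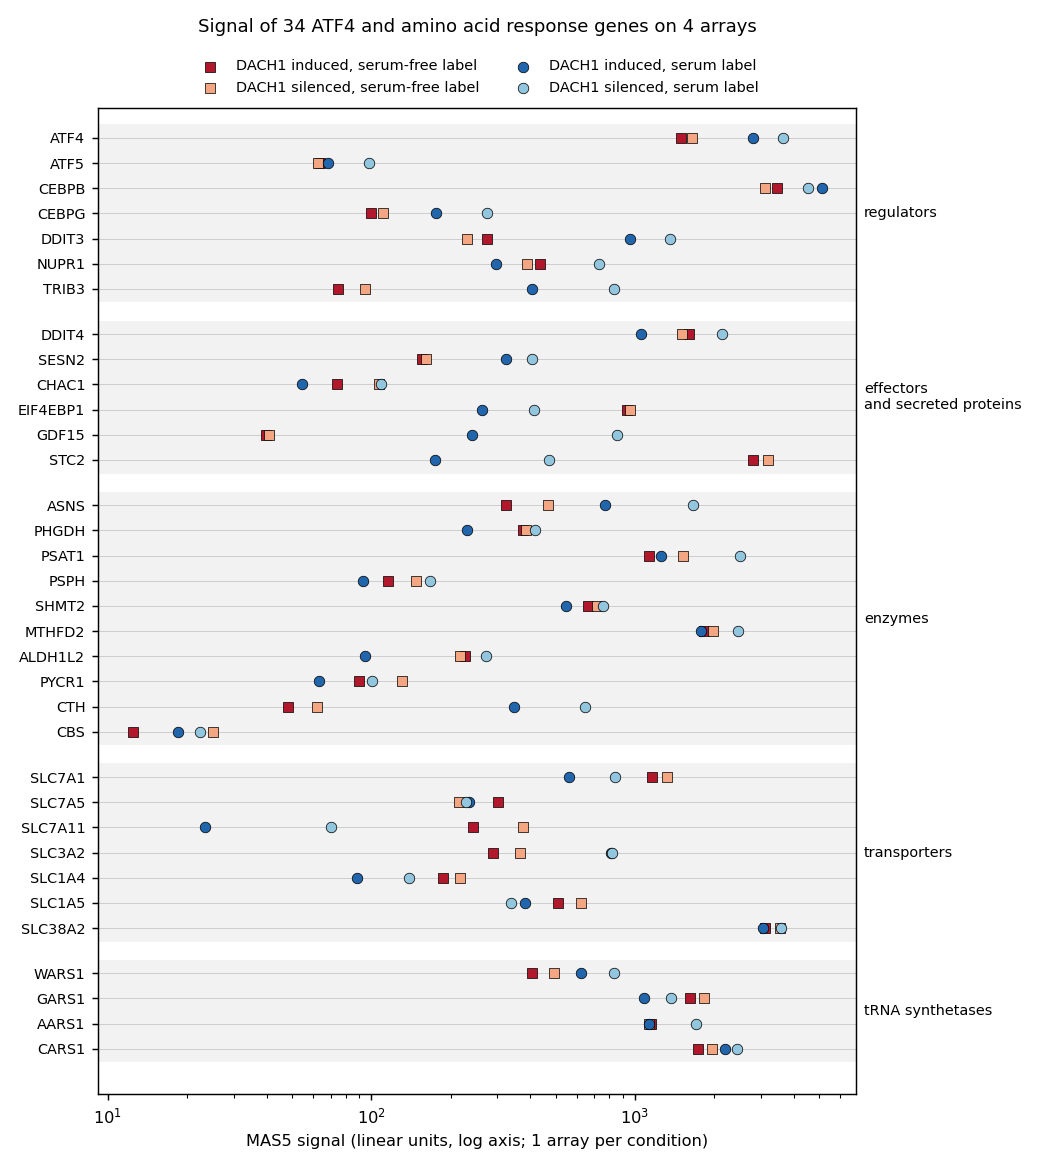
MAS5 signal (log axis) of each of the 34 genes on the 4 arrays, grouped by role, with squares for the serum-free label, circles for the serum label, dark for DACH1 induced and light for DACH1 silenced. Levels of different genes cannot be compared. Squares lie left of circles for ATF4, DDIT3, TRIB3, GDF15 and CTH and right of them for STC2, SLC7A11 and EIF4EBP1.

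The wider pathway was read from further lists. Over all genes in the fit, 15.4% rose and 12.7% fell by medium, so short lists can hold calls in either direction. Of 13 other cytosolic tRNA synthetase genes named here, 0 rose and 3 fell by medium: RARS1 2.24-fold (limma adjusted p 0.0336), LARS1 2.02-fold and FARSB 1.69-fold. With DACH1 under the serum label their median log2 difference was 0.00, with YARS1 furthest at 1.63-fold lower, while that of the 4 genes above was -0.38. In the list of eIF2alpha kinases and eIF2 machinery, 0 of 14 genes rose and 2 fell by medium. These were PPP1R15A, the stress-induced phosphatase subunit that reverses eIF2alpha phosphorylation, at 2.11-fold (limma adjusted p 0.0291), and its constitutive relative PPP1R15B, at 2.09-fold. EIF2AK3, which encodes the ER stress kinase PERK, read 345.6 in induced and 342.8 in silenced cells under the serum-free label and 153.8 and 256.3 under the serum label, and was not called. With DACH1 the list had a median of -0.06 under the serum label.

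Of 19 other genes in the fit described as ATF4 targets, 5 rose and 4 fell by medium, where 15.4% of all genes rose and 12.7% fell. ATF3, a stress-induced bZIP repressor, fell 8.79-fold (limma adjusted p 0.0167), with 86.7 in induced and 75.9 in silenced cells against 911.0 and 558.3. KLHL24 fell 4.06-fold and TUBE1 3.58-fold, while JDP2, another bZIP repressor, rose 3.22-fold. With DACH1 under the serum label 3 of 18 were at least 2-fold lower and 1, HMOX1, higher, with a median of -0.34. HMOX1 was 8.21-fold higher, with 1497.5 in induced and 182.4 in silenced cells, while LURAP1L was 3.83-fold lower. ATF3 was 1.63-fold higher. Of the 18 genes, 12 lay below 0 and 6 above. Of all genes compared in this pair, 4.77% were 2-fold lower and 2.91% higher. One-carbon and glycine genes rose in 3 and fell in 2 of 11 cases by medium. The thymidylate synthase gene TYMS rose 3.19-fold and ALDH18A1, the entry enzyme of proline synthesis, 2.29-fold (limma adjusted p 0.0188 and 0.0302). Of 10 compared, 0 were 2-fold apart with DACH1 under the serum label, and their median was -0.03. Other amino acid transporters rose in 4 and fell in 3 of 13 cases. SLC1A1, a glutamate transporter, rose 3.67-fold (limma adjusted p 0.0180) and the light chain gene SLC7A7 fell 2.94-fold. With DACH1 under the serum label 1 of 11 was 2-fold higher and 2 lower, with a median of 0.11.

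Probe sets that were not used to represent a gene gave a further reading. The 34 genes had 71 probe sets, and 14 genes had 1. Of the 37 others, 27 had at least 2 arrays at or above the filter, and 26 of these had the same sign as the chosen probe set by medium, the exception being 1 of MTHFD2. Under the serum label, 26 of the 27 also had the same sign by DACH1, the exception being the dim probe set of SLC7A11 given above. Signs by DACH1 under the serum-free label were not counted, and some turned there. Another probe set of TRIB3 gave 0.46 against -0.34 for the chosen one, and 1 of ALDH1L2 gave -0.14 against 0.07. For CTH the sign was kept, with -0.53 against -0.37. It was also kept, at an unlike size, for SESN2 (-0.83 against -0.05) and for a dim probe set of ATF5 (1.24 against 0.03). Of the 12 genes called by medium, 6 had another such probe set, and all 6 had the same sign there. Restricted to genes at a signal of 100 or more, with a floor of 50, 8 of the genes described here were at least 2-fold lower with DACH1 under the serum label, where 3.54% of all such genes were lower and 2.24% higher. Under the serum-free label 0 were, where 0.123% of all such genes were lower and 0.0274% higher.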

How the data were processed

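Total RNA of 4 U87TR-Da cultures was measured on 4 Affymetrix arrays, 1 per condition, with 6 µg of RNA labelled for each. The authors deposited 1 MAS5 intensity for each probe set, linear and not logged; MAS5 is named in the submitters' processing notes, without a version. Their trimmed means, leaving out 2% at each end, were 99.63 to 99.65 on the 4 arrays. No scanner file, detection call or scan batch was used here.

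Of 54613 probe sets, 41091 were paired with 1 gene, 1801 with several and 11721 were not listed. Symbols were updated through Entrez identifiers for 99.9%. A floor of 10.9 (percentile 40 over all values) was applied ahead of the log2 step. The brightest probe set by mean log2 signal stood for a gene. A gene needed a signal of 17.2, the median of all signals, on 1 array of a pair or on 2 of 4 arrays in the fit.

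An additive limma fit (R 4.3.3, limma 3.58.1; DACH1 state and medium label) covered 12103 genes with Benjamini-Hochberg adjustment. Its code was run on simulated data without an interaction of DACH1 and medium. That run cannot check the error of the fit in these arrays, which comes from such an interaction. Pairs of arrays were compared at 2-fold with no test. Tables and motif searches used Python 3.11.15 and pandas 2.3.3. The alternatives changed the normalization, floor, filter, choice of probe set and variance prior. The members and lists were chosen with earlier results of these data known. Text names all 34 genes and, from each further list, up to 4 genes called by limma with the largest difference, or up to 2 by size where 0 were called. EIF2AK3 is among the latter for DACH1.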

Additional observations from a re-analysis of the deposited data

Results flagged for a closer look

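In 3 of the 34 genes the effect of 1 factor had opposite signs in the groups of the other, with log2 differences at least 1 apart, in both contrasts. Over all genes in the fit 4.1% met this rule in both contrasts. These differences between single arrays were not tested. For NUPR1 the log2 difference of induced minus silenced cells was 0.16 under the serum-free label and -1.30 under the serum label. Its log2 difference of serum-free minus serum label was 0.56 in induced and -0.91 in silenced cells. DDIT4 gave 0.09 under the serum-free label and -1.03 under the serum label for DACH1, and 0.61 in induced and -0.51 in silenced cells for the medium. ALDH1L2 gave 0.07 and -1.52 for DACH1 under the serum-free and serum labels, and 1.26 and -0.33 for the medium in induced and silenced cells. The 2 contrasts of a gene hold the same 4 signals, so they are not separate readings.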

How the results depend on the processing

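With no filter on dim genes, limma called 0 of the 34 genes higher and 0 lower by medium, and all 12 calls were lost. Calls higher numbered 5 with every array at or above the median signal, 6 with a floor of 50, 5 with the mean of all probe sets, 7 with a trend in the variance prior and 5 without probe sets ending in _x_at or _s_at. Without those probe sets 22 genes were left and 5 were called lower. There the 2-fold counts became 5 higher and 5 lower for the medium in silenced cells, 3 lower for the medium in induced cells, and 5 lower of 21 for DACH1 under the serum label. For DACH1 under the serum-free label, 0 genes were 2-fold lower with every array at or above the median, a floor of 50, the mean of probe sets or quantile normalization. Signs turned for differences near 0. With the mean of probe sets ATF5 by DACH1 became 0.10 and MTHFD2 by medium 0.13, and the median of the medium difference 0.031. With quantile normalization DDIT4 by medium became -0.022, SLC38A2 -0.19, and the median of the medium difference in induced cells -0.014. CEBPG lost its call with no floor (limma adjusted p 0.0561). Where fewer genes were fitted, that is by construction, and otherwise the cause was not tested. No DACH1 call was made under any alternative run. No paired analysis was possible because each condition has 1 array and the labels share no replicate numbers, beyond the additive limma fit, which already compares the states within a medium and the media within a state. MAS5 signals near the floor limit what can be said of dim genes such as CBS.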
